A study of Mus musculus with 8 samples.

Results

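The Gadd45 genes (Gadd45a, Gadd45b, Gadd45g) and the Btg/Tob genes (Btg1, Btg2, Btg3, Tob1, Tob2) are 8 genes chosen by symbol from families known as brakes on cell division. They were followed through 300 min of bicuculline treatment in neuronal cultures. Of these 8 genes, 7 had a transcript cluster (the set of array probes summarised as 1 value) of their own, among 19938 genes tested, and each of the 7 had a single such cluster. The platform annotation placed Btg3 on 2 clusters that it shares with the pseudogene Gm7334, so no value stands under its name. RNA came from hippocampal neurons of ICR mice, an outbred laboratory strain, taken from E17.5 embryos and grown for 10 days in vitro. Bicuculline, which blocks GABA-A receptors and so releases the network from inhibition, was applied at 50 µM for 0, 30, 180 or 300 min. Each time had 2 biological replicates, and each replicate was hybridised to 1 Affymetrix Mouse Gene ST 1.0 array. All arrays after 0 min held treated cultures, so the effect of the drug and that of time in the assay cannot be told apart. Having only 2 arrays a time limited the precision throughout.

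Gadd45 proteins are small stress-response proteins without known enzyme activity of their own. They bind partners such as the kinase Map3k4, which feeds the p38 and JNK pathways, and the replication clamp PCNA, and they have been linked to removal of DNA methylation at gene promoters, in neurons above all for Gadd45b. Btg and Tob proteins share an N-terminal domain through which they hold the deadenylases Cnot7 and Cnot8 of the Ccr4-Not complex, which shortens poly(A) tails. Btg2, also called TIS21 or PC3, was found as a gene rapidly induced by phorbol ester or nerve growth factor, and it is known for halting the division of neuronal precursors. Neurons in culture no longer divide, so in these cells the genes are studied as part of the activity and survival programmes.

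The cultures carried the markers of neurons: all 8 neuronal markers, among them Tubb3, Map2, Slc17a7 and Gad1, lay above the background mark of 4.47, below which 95% of the 1015 olfactory receptor genes lay. Markers of other cells were detected too: 5 of 6 astrocyte markers, 4 of 5 of the oligodendrocyte lineage, 4 of 6 of microglia and 5 of 6 of endothelium, pericytes or fibroblasts, among them the collagen gene Col1a1 at 8.06, lay above that mark. Markers of dividing cells were dim, with Mki67 at 4.02 and Bub1 at 3.31 over the 8 arrays, and 3 of the 5 measured markers (Top2a, Cdk1 and Aurkb) above the background mark. The summed linear signal of those 5 markers ranged from 105 to 108 at 0 min, from 100.4 to 111 at 30 min, was 111 on both arrays at 180 min and ranged from 104 to 106 at 300 min. The astrocyte sum ranged from 334 to 413 at 0 min and from 360 to 393 at 30 min. The summed signal of 6 endothelial, pericyte and fibroblast markers was 476 to 506 at 0 min and 531 to 533 at 30 min. That of 5 oligodendrocyte markers was 181 to 193 and 197 to 203. Neither sum overlapped between 0 and 30 min. The sum of the 8 neuronal markers, at 5018 to 5340 and 5341 to 5530, all but touched. The mean log2 signal of these 8 overlapped, at 9.08 to 9.15 and 9.12 to 9.13. At 180 min the neuronal sum, at 4744 to 4912, lay below its range at 0 and at 30 min. The oligodendrocyte sum, at 191 to 193, lay below that at 30 min. The sum of dividing-cell markers lay above its range at 0 and at 30 min. By mean log2 signal the neuronal markers at 180 min, at 9.04 to 9.09, overlapped those of 0 min and lay below those of 30 min. By the same measure the dividing-cell markers, at 4.33 to 4.35, lay above those of 0 min and overlapped those of 30 min. At 300 min the oligodendrocyte (170 to 176), microglial (180.2 to 185) and endothelial, pericyte and fibroblast sums (458 to 471) lay below their 0 min ranges, which for microglia was 194 to 196. The mean log2 signal of the endothelial, pericyte and fibroblast markers overlapped, at 5.59 to 5.67 against 5.62 to 5.65 at 0 min. The part of these shifts in the results was not tested. No marker of any of the 6 lists passed the test against 0 min at any time. In such bulk RNA, a change in the number of cells of a type and a change in RNA per cell cannot be told apart.

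The 4 members with a call in any comparison are shown by the 250 bases before their RefSeq start site (GRCm38.p6, written 5′ to 3′ on the gene's own strand), to set the sequence beside the time courses that follow. Capitals mark every match, on either strand, to TGACG (the half-site of the cAMP response element, CRE, to which CREB binds), TGACGTCA (the full CRE, which holds the half-site on both strands), TGANTCA (the site of AP-1), the CArG box of serum response factor, and 2 elements of the core promoter. These are the sequence TATAAA, at which the basal transcription machinery is placed, and the sequence CCAAT, which the factor NF-Y binds. The window of Btg2 is chr1:134079156-134079405 on the minus strand, that of Gadd45b chr10:80929841-80930090 on the plus strand, that of Gadd45g chr13:51846425-51846674 on the plus strand and that of Tob1 chr11:94211204-94211453 on the plus strand.
Btg2: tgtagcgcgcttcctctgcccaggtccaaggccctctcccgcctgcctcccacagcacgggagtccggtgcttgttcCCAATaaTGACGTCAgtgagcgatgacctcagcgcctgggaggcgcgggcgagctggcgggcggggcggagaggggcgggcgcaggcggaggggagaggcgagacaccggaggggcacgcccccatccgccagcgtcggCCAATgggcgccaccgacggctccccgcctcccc
Gadd45b: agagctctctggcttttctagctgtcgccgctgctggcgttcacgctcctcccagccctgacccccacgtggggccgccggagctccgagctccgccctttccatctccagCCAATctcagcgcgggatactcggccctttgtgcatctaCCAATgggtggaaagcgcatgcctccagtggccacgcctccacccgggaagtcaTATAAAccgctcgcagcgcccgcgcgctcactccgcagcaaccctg
Gadd45g: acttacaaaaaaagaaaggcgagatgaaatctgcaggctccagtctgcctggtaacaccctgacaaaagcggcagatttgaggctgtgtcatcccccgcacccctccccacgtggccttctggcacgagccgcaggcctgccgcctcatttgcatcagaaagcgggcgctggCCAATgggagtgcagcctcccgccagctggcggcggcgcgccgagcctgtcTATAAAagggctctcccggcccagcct
Tob1: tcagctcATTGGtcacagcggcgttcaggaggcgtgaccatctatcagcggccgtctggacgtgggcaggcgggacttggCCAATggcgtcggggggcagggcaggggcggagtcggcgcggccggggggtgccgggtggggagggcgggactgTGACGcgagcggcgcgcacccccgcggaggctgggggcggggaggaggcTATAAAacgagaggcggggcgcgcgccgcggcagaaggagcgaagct

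The full CRE of the Btg2 window began 166 bases before the start site. It was found in 1 of the 9 windows of the 8 members (Btg3 has 2) and in 1.55% of the 32851 windows of all genes. The half-site was found in 3 of the 9, those of Btg1, Btg2 and Tob1, against 17.8% of all windows, and Tob1 held its match 96 bases before the start. The windows of Btg1, Gadd45b, Gadd45g and Tob1 held TATAAA, against 12.4% of all windows, and 8 of the 9 held CCAAT, against 33.8%. Neither TGANTCA nor the CArG box was found in any of the 9 windows, and these occur in 6.75% and 1.47% of all windows. The member windows were 57.2% to 75.2% G and C, and the median of all windows was 52.4%. A match describes these letters only.

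Btg2 had the largest rise of the 7 and the largest fall. Its log2 signal was 6.33 and 6.52 on the 0 min arrays, 8.28 and 8.27 at 30 min, 6.61 and 6.24 at 180 min and 6.49 and 6.55 at 300 min. Both 30 min arrays stood far above the other 6, which overlapped one another across times. Btg2 rose 3.6-fold within 30 min (log2 change 1.85 ± 0.14 SE, limma adjusted p = 7.49e-06) and ranked 6 of 19938 genes by increase. It fell 3.6-fold from 30 to 180 min (log2 change −1.85 ± 0.14 SE, limma adjusted p = 7.57e-06). The difference from 0 min was then 0.00 at 180 min, with a 95% interval from −0.29 to 0.30, and 0.10 at 300 min, with an interval from −0.20 to 0.39.

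Gadd45g rose with Btg2 and came down more slowly. Its signal was 6.73 and 6.88 at 0 min, 8.33 and 8.16 at 30 min, 7.63 and 7.30 at 180 min and 7.11 and 7.22 at 300 min. Every later array lay above both 0 min arrays, and the 3 later times did not overlap one another. The rise at 30 min was 2.72-fold (log2 change 1.44 ± 0.14 SE, limma adjusted p = 0.00011), and the fall from 30 to 180 min was 1.72-fold (log2 change −0.78 ± 0.14 SE, limma adjusted p = 0.0218). The call of that fall was lost under 5 of 16 alternatives: without 30 min replicate 1 (log2 change −0.70), 30 min replicate 2 (−0.86) or 180 min replicate 2 (−0.61), and, at the same −0.78, with every row tested (adjusted p = 0.252) and with only the arrays compared in the fit (0.0613). Over the 16 the adjusted p ranged from 0.00515 to 0.316. At 180 min the signal was 1.58-fold that of 0 min and did not pass (log2 change 0.66 ± 0.14 SE, limma adjusted p = 0.0619). Under 4 of 16 alternatives it did, with adjusted p over the 16 between 0.0254 and 0.392; one of the 4 was without 180 min replicate 2 (log2 change 0.83, adjusted p = 0.0424), where 1 array stood for 180 min. At 300 min the log2 change was 0.37, with a 95% interval from 0.07 to 0.66 and an adjusted p of 0.428 (limma).

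Gadd45b was likewise highest at 30 min, with a wider spread later. The arrays gave 6.21 and 6.41 at 0 min, 7.47 and 7.41 at 30 min, 6.93 and 6.76 at 180 min and 6.56 and 7.24 at 300 min. All 6 later arrays lay above both 0 min arrays, while the 300 min replicates lay apart and spanned the 180 min values. Gadd45b rose 2.2-fold at 30 min (log2 change 1.14 ± 0.18 SE, limma adjusted p = 0.0198). The call was lost without either 0 min array and without either 30 min array, with adjusted p between 0.126 and 0.303, and when every row of the array was tested (0.518), although the log2 change stayed between 1.04 and 1.24 without each array in turn. The decline from 30 to 180 min, at −0.59 ± 0.18 SE on the log2 scale, did not pass (limma adjusted p = 0.215). At 300 min the log2 change from 0 min was 0.59 ± 0.18 SE and did not pass (limma adjusted p = 0.259). It was 0.94 without 300 min replicate 1 and 0.25 without replicate 2. In the first case the adjusted p was 0.045, but a single array then stood for 300 min and was assumed to vary like those of the other times.

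Gadd45a, the family member known as a target of p53, gave no call. Its signal was 5.87 and 6.43 at 0 min, 5.91 on both arrays at 30 min, 6.03 and 5.99 at 180 min and 5.81 and 6.08 at 300 min. The 2 arrays of 0 min enclosed every array of 30 and 180 min, and 1 array of 300 min lay below them. The change at 30 min was −0.24 on the log2 scale, with a 95% interval from −0.59 to 0.11, which lies below the estimated changes of Gadd45b and Gadd45g. It was 0.04 without 0 min replicate 2 and −0.52 without 0 min replicate 1.

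**Figure D1:**
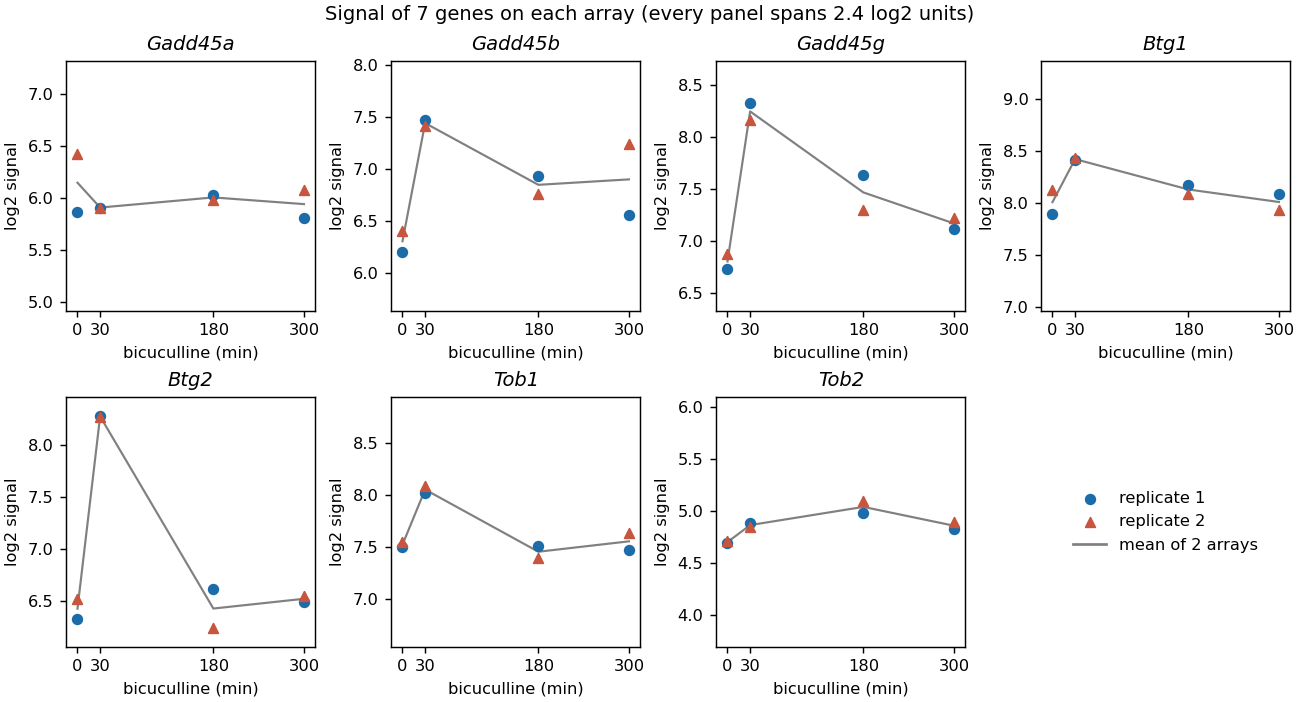
Log2 signal (vertical axis) of the 7 measured genes against minutes of bicuculline (horizontal axis), with a point for each array and a line through the mean of the 2 arrays; all panels span the same number of log2 units at different levels. Btg2 stands at 8.28 and 8.27 at 30 min and between 6.24 and 6.61 at the other times, and Gadd45b has its 300 min arrays at 6.56 and 7.24.

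Tob1, which links the deadenylases to poly(A)-binding protein, moved by less but with little spread. It was at 7.50 and 7.54 at 0 min, 8.02 and 8.08 at 30 min, 7.51 and 7.39 at 180 min and 7.47 and 7.63 at 300 min. The 30 min arrays lay above the other 6, and the other 3 times overlapped. Its log2 change at 30 min, 0.53 ± 0.12 SE or 1.44-fold, did not pass over all genes (limma adjusted p = 0.305), although it ranked 39 of 19938 by increase. Tob1 fell 1.51-fold from 30 to 180 min (log2 change −0.60 ± 0.12 SE, limma adjusted p = 0.0429). This call held under 6 of 16 alternatives, with adjusted p between 0.0128 and 0.316. The call was lost without each of the arrays of 0, 30 and 180 min in turn, with the log2 change between −0.54 and −0.66. It was also lost after quantile normalization (log2 change −0.56, limma adjusted p = 0.0621). With the change still at −0.60, it was lost with the replicate number as a block (limma adjusted p = 0.0552). The same held with every row tested (0.252) and with only the arrays compared in the fit (0.0757).

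Btg1, the closest relative of Btg2, gave 7.90 and 8.12 at 0 min, 8.41 and 8.44 at 30 min, 8.17 and 8.09 at 180 min and 8.09 and 7.93 at 300 min. The 30 min arrays were again the highest, and the 180 and 300 min arrays overlapped those of 0 min. Its log2 change at 30 min was 0.41 ± 0.13 SE, or 1.33-fold, and did not pass (limma adjusted p = 0.744). The change from 30 to 180 min was −0.29, with a 95% interval from −0.56 to −0.02 and an adjusted p of 0.43 (limma). Its copies on the X chromosome, Btg1b and Btg1c, had mean signals of 2.81 and 3.73, below the background mark, and gave no call at any time.

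Tob2 was the dimmest of the 7, near the background mark of 4.47. Its arrays read 4.69 and 4.71 at 0 min, 4.88 and 4.85 at 30 min, 4.98 and 5.10 at 180 min and 4.82 and 4.89 at 300 min. Here the highest arrays were those of 180 min, not of 30 min, and all 6 later arrays lay above both 0 min arrays. The log2 change at 180 min was 0.34 ± 0.12 SE, or 1.26-fold, and did not pass (limma adjusted p = 0.242). No comparison called Tob2.

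The 2 clusters annotated to both Btg3 and Gm7334 ran in parallel and differed from each other by 0.07 to 0.11 on every array. The first was at 5.94 and 6.27 at 0 min, 6.02 and 5.91 at 30 min, 6.19 and 6.49 at 180 min and 6.24 and 6.60 at 300 min. Its arrays overlapped those of 0 min at all 3 later times. The changes of the 2 clusters from 0 min were −0.14 and −0.16 at 30 min and 0.32 and 0.34 at 300 min, and none passed when every row was tested (limma adjusted p of 0.821 for both at 300 min). They cannot be divided between the gene and its pseudogene. Btg4, the oocyte member of the family, was at a mean of 3.54, below the background mark, and did not pass (log2 change 0.49 at 300 min, limma adjusted p = 0.15).

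Counted together, 3 of the 7 measured members rose at 30 min and none fell, where 0.0953% of all genes tested were called in either direction and 0.0802% were higher. The arrays of 6 of the 7, all but Gadd45a, lay wholly above those of 0 min, against 19.2% of all genes. The members' median log2 change was 0.53 and that of all genes was 0.00. At 180 min none of the 7 passed against 0 min by limma, with 3 at an unadjusted p under 0.05 (12.8% of all genes, of which 0.331% were called). At 300 min none passed by limma either, with 2 at an unadjusted p under 0.05 (8.96% of all genes, 0.286% called). The arrays of Gadd45b, Gadd45g and Tob2 lay wholly above 0 min at both times, against 21.1% of all genes at 180 min and 18.8% at 300 min. These comparisons share the 0 min arrays. Members were chosen with earlier results of these data known, so these counts and those from 30 to 180 min are no independent evidence.

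From 30 to 180 min, 3 of the 7 fell, namely Btg2, Gadd45g and Tob1, and none rose, where 0.502% of all genes were called in either direction and 0.171% were lower. The arrays of 5 of the 7 lay wholly below those of 30 min, against 22.4% of all genes, and those of Gadd45a and Tob2 wholly above, against 18.2%. The median change of the 7 was −0.59. This fall and the rise at 30 min share the 30 min arrays, so their counts are not independent. From 180 to 300 min none of the 7 passed by limma (0% of all genes called), and Gadd45g alone had an unadjusted p under 0.05, as did 5.72% of all genes.

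**Figure D2:**
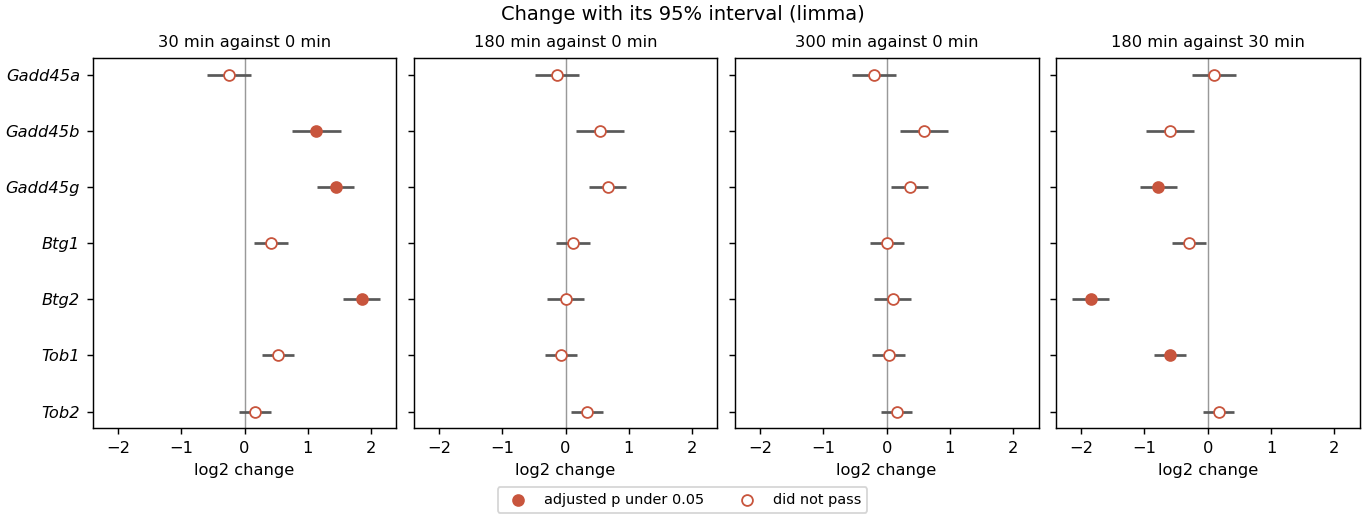
Log2 change of each measured gene (horizontal axis) with its 95% interval in 4 comparisons, from limma on 8 arrays; filled points had an adjusted p under 0.05. Gadd45b, Gadd45g and Btg2 are filled at 30 min, none is filled at 180 or 300 min against 0 min, and Gadd45g, Btg2 and Tob1 are filled on the negative side from 30 to 180 min.

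Likeness to other genes was measured as the root mean square difference, over the 8 arrays, of log2 signals counted from each gene's own 0 min mean. Unnamed and predicted loci were left out, so such a locus could lie nearer than the genes given. The 3 genes nearest to Btg2 were the zinc finger gene Egr2 (0.217), the MAP kinase phosphatase gene Dusp1 (0.321) and the AP-1 gene Junb (0.324). Like Btg2, Egr2 and Dusp1 were back near 0 min at 180 min, at log2 changes of −0.14 and −0.06, after 1.47 and 1.29 at 30 min. Nearest to Gadd45g were Egr4 (0.161), Junb (0.231) and Gadd45b (0.252). Egr4 stood at 1.35, 0.44 and 0.40 above its 0 min mean at 30, 180 and 300 min, where Gadd45g stood at 1.44, 0.66 and 0.37. Nearest to Gadd45b were Egr4 (0.215), Fgl2 (0.236), which encodes a fibrinogen-like protein, and Gadd45g (0.252). Fgl2 itself did not pass at any time (log2 change 0.79 at 30 min, limma adjusted p = 0.214).

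**Figure D3:**
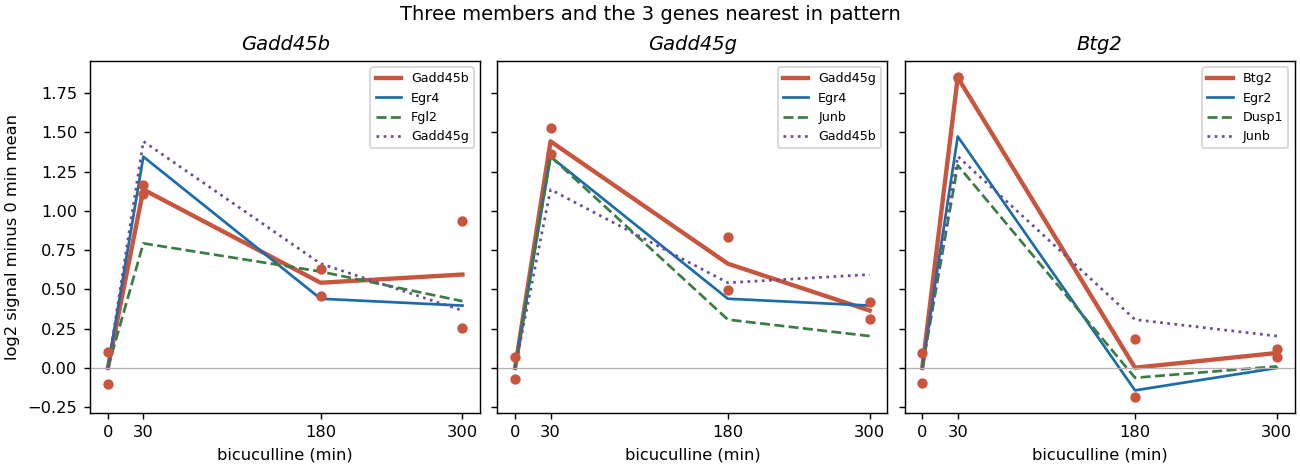
Log2 signal minus the 0 min mean (vertical axis) against minutes of bicuculline for Gadd45b, Gadd45g and Btg2 (thick line of means, a point for each array) and for the 3 genes nearest to each over the 8 arrays (thin lines of means). Unnamed and predicted loci were left out of the search for nearest genes. Btg2, Egr2 and Dusp1 are within 0.15 of 0 by 180 min, and Gadd45b and Gadd45g are at 0.54 and 0.66.

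The partners through which these proteins act showed no calls. For the counts at an unadjusted p under 0.05 that follow, the shares over all genes were 5.11% at 30 min, 12.8% at 180 min and 8.96% at 300 min. Of 16 genes of the Ccr4-Not and Pan2-Pan3 deadenylases, none passed against 0 min at 30, 180 or 300 min (limma), with 0, 3 and 0 at an unadjusted p under 0.05. Their changes at 30 min ran from −0.26 to 0.12. The smallest p belonged to Cnot2 (log2 change −0.37 ± 0.13 SE at 180 min, limma adjusted p = 0.268) and the scaffold gene Cnot1 (−0.34 ± 0.13 SE, 0.294). Of 12 kinases downstream or upstream of Gadd45 in p38 and JNK signalling, none passed at any time, with 0, 5 and 2 at an unadjusted p under 0.05. Map3k4, the kinase that Gadd45 proteins bind, was at −0.47 ± 0.13 SE at 180 min (limma adjusted p = 0.164), and Map3k5 was at 0.66 ± 0.15 SE at 300 min (0.113). Of 15 genes of DNA demethylation and methylation, none passed, with 0, 3 and 1 at an unadjusted p under 0.05. The methylcytosine dioxygenase gene Tet1 was at −0.70 ± 0.17 SE at 180 min (limma adjusted p = 0.11) and −0.71 at 300 min (0.126), and its relative Tet2 was at 0.33 ± 0.13 SE at 180 min (0.321).

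The lists of p53 targets, of genes that hold cells in G1 and of genes of dividing cells held no calls either. Of 19 measured p53 targets, with the members kept off the list, none passed at the 3 times, with 0, 2 and 3 at an unadjusted p under 0.05. Plk3 had the smallest p of these (log2 change 0.38 ± 0.11 SE at 300 min, limma adjusted p = 0.258), followed by Aen (0.32 ± 0.13 SE, 0.463). Trp53, Bax and Cdkn1a, the gene of p21, had no cluster of their own and were not tested. Of 12 genes that hold cells in G1, none passed, with 2, 0 and 1 at an unadjusted p under 0.05. Klf4, which is also on the list of immediate-early genes below, had the smallest p of them, at 30 min (0.76 ± 0.15 SE, limma adjusted p = 0.146). Btg4, with a mean signal below the background mark, followed at 300 min (log2 change 0.49, limma adjusted p = 0.15). Of 22 cyclins, kinases and replication genes of dividing cells, none passed, with 0, 2 and 1 at an unadjusted p under 0.05. Top2a was at 0.39 ± 0.12 SE at 180 min (limma adjusted p = 0.202) and Mcm6 at −0.33 ± 0.14 SE at 300 min (0.489).

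The lists that held calls were those of activity. Over all genes, 0.0802% were called higher at 30 min, and 0.331% and 0.286% were called in either direction at 180 and 300 min. From 30 to 180 min 0.171% were called lower and 0.502% in either direction. Of 21 immediate-early genes, 11 rose at 30 min, or 7 at 180 min and 7 at 300 min against 0 min, and from 30 to 180 min 11 fell and 2 rose (limma). Those that rose at 30 min were Npas4, Fosb, Arc, Fos, Nr4a1, Egr2, Junb, Egr4, Egr1, Dusp1 and Ier2, and at both later times Fosb, Npas4, Fos, Nr4a1, Nr4a2, Per1 and Fosl2 stood above 0 min. The median change of the 21 at 30 min was 1.16, and that of the 7 measured members was 0.53. Of the members, which were kept off this list, the 3 called at 30 min, Btg2, Gadd45g and Gadd45b, had changes of 1.85, 1.44 and 1.14. Of 8 genes of activity-regulated survival other than the members, 2 rose at 30 min (Npas4 and Nr4a1), and 5 at 180 and at 300 min, with Atf3, Inhba and Bdnf added. Npas4 and Nr4a1 are also on the immediate-early list, so their calls are counted in both lists. Npas4, a transcription factor gene, was still 1.73 ± 0.14 SE above its 0 min level at 180 min on the log2 scale (limma adjusted p = 7.76e-05), when Btg2 was at 0.00. Both lists were drawn up with results of these data known, so their direction is no independent evidence.

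**Figure D4:**
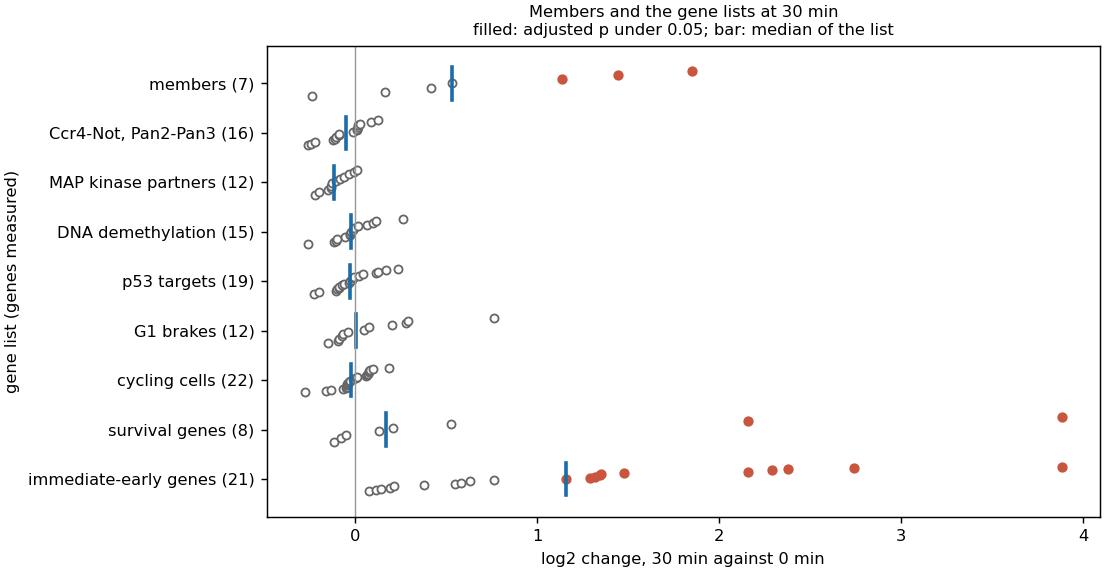
Log2 change from 0 to 30 min (horizontal axis) of the 7 measured members and of 8 gene lists (rows, with the number of genes measured), a point for each gene, filled where limma's adjusted p was under 0.05, with a bar at each median. The members have 3 filled points, the immediate-early list 11 and the survival list 2, and the other 6 lists have none.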

How the data were processed

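The deposited table held 1 log2 signal for each of 35399 transcript clusters on 8 arrays; the log base was read from the values, and per the labels' protocols biotin-labelled total RNA was hybridised. Background correction, summary, normalization, software and build are not given in the sources used here, and they set the size of every change. Array medians lay between 4.84 and 4.88, and no further scaling was applied. The annotation named 1 gene for 21789 rows, more than 1 for 1621 rows and no gene for the other 11989. The brightest cluster stood for each gene, which left 19938 genes, with no filter on dim ones. A mean per time was fitted over all arrays with limma 3.58.1 in R 4.3.3 (lmFit, eBayes; 4 residual and 10.1 prior degrees of freedom), two-sided, with Benjamini-Hochberg adjustment over all genes and a threshold of 0.05. SE is the moderated standard error. The labels call replicates biological without naming separate dissections, so p-values cover only the spread seen between arrays, which may be technical. In 5 simulated runs of 180 against 0 min over 19938 genes, 100 genes were given a log2 change of 1 and 100 a change of 0.5. Of these, 97.6% and 18.8% were recovered. The shares depend on the number of genes changed and on normal noise drawn from the fitted prior. They need not hold for the data, which gave 66 calls at 180 min. Named were all members, list genes that passed or else the 2 with the smallest p, and the 3 genes nearest in pattern to each member called against 0 min. The search for nearest genes left out unnamed and predicted loci. Members and lists were chosen with earlier results of these data known. Alternatives changed the scaling, centring, dim-gene filter, rows, clusters, variance prior, replicate block, arrays in the fit and each replicate in turn.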

Additional observations from a re-analysis of the deposited data

How the results depend on the processing

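No change that was itself called reversed under any of 16 alternatives. The 3 calls at 30 min stayed within 2 to 3 without each array in turn, and Btg2 and Gadd45g passed at 30 min under all 16 (highest adjusted p 0.0153 and 0.0456, limma, when every row was tested). At 180 min against 0 min, Gadd45g passed after quantile normalization, among genes at or above the background mark only, and with a trended robust prior, which made 1 member called in each, and the range without each array was 0 to 1. At 300 min it was 0 to 1. From 30 to 180 min the count was 1 when every row was tested and 1 with only the arrays of both times in the fit, and 1 to 3 without each array; Btg2 passed in all. Testing every row changed both the number of tests and the variance prior, and the cause of the lost calls was not tested. Leaving out an array leaves fewer degrees of freedom. From 180 to 300 min it stayed 0, while over all genes it was 14 without 180 min replicate 2 and 0 to 2 without each other array. Over all genes, the calls at 180 min numbered 66 in the main setting, 101 among brighter genes, 108 with the trended prior, 1 with every row tested and 19 with only the arrays compared, and from 15 to 68 without each array. At 300 min they numbered 57, then 98, 91 and 5 under the first 3 of these, and from 17 to 61 without each array. From 30 to 180 min they numbered 100 against 156 with the trended prior, 9 with every row and 55 with only the arrays compared, and from 17 to 93 without each array; at 30 min they were 19, and 12 to 21 without each array. Split by direction at 180 min, 42 were higher and 24 lower, against 31 and 30 after median centring. The replicate block changed 1 call of a member, that of Tob1 from 30 to 180 min (adjusted p = 0.0552), and left the counts at 3, 0, 0, 2 and 0 in the order of comparisons given. The numbers pair no cultures in the labels, and replicate differences correlated at −0.09 to 0.09 between times.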
